A study of Mus musculus with 8 samples.

Results

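The miR-200 family is a group of 5 microRNA hairpins that lie in a pair of clusters, and each hairpin gives a 5p and a 3p strand, or arm. Its 10 mature members, among the 1881 mouse miRNAs on the array, were chosen by name: mmu-miR-200a-3p, mmu-miR-200a-5p, mmu-miR-200b-3p, mmu-miR-200b-5p, mmu-miR-429-3p and mmu-miR-429-5p of the chromosome 4 cluster, and mmu-miR-200c-3p, mmu-miR-200c-5p, mmu-miR-141-3p and mmu-miR-141-5p of the chromosome 6 cluster. They were measured in whole kidneys of 4 Akita samples (strain C57BL/6-Ins2Akita/J) and 4 control samples (strain C57BL/6J), each on 1 one-colour Agilent miRNA array. All samples were from males of the labelled age 36, for which no unit is given. The Akita allele of the insulin gene Ins2 makes proinsulin misfold in pancreatic beta cells and causes diabetes. The titles call the controls Mock, and the sources used here do not say whether that refers to a treatment. Since the labels do not state that the samples are separate mice, each p-value speaks to the spread among these 8 samples, which may be technical.

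The miR-200 family is known for keeping cells epithelial. Its members bind the messenger RNAs of Zeb1 and Zeb2, transcription factors that repress E-cadherin, and these factors in turn repress both clusters. TGF-beta, which drives kidney fibrosis, is known to act on this loop during epithelial to mesenchymal transition. A miRNA recognises its targets mainly through its seed, bases 2 to 8 counted from the 5′ end, so members with different seeds have partly different targets.

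All 10 members were matched by name to RefSeq sequences (GRCm38.p6). The 3p arms are shown first because all 5 were above background on every array and they fall into 2 seed groups that each span both clusters. The seed is in capitals.
mmu-miR-200b-3p: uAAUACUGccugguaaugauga
mmu-miR-429-3p: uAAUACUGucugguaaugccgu
mmu-miR-200c-3p: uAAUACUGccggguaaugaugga
mmu-miR-200a-3p: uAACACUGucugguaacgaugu
mmu-miR-141-3p: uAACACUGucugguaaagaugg

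The seed AAUACUG was shared by miR-200b-3p, miR-429-3p and miR-200c-3p, and AACACUG by miR-200a-3p and miR-141-3p. The seeds differ at 1 base of the mature strand, written C4U from miR-200a-3p to miR-200b-3p with positions counted from the 5′ end. Among the 1679 mature miRNAs of the reference table, no other miRNA had either seed. Outside the seed, members of different clusters with the same seed differed at 2 to 5 bases: miR-200b-3p and miR-200c-3p differed by U11G and A22G over 22 compared bases, miR-200a-3p and miR-141-3p by C17A and U22G, and miR-200c-3p and miR-429-3p at 5 bases. Within the chromosome 4 cluster there were 4 differing bases between miR-200a-3p and miR-200b-3p, including C4U in the seed. There were also 4 between miR-200b-3p and miR-429-3p, all outside the seed.

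The 5p arms are shown because they test whether the arms of 1 hairpin were measured alike. Their seeds fall into 4 groups, of which AUCUUAC holds miR-200a-5p and miR-200b-5p and the others hold 1 member each.
mmu-miR-200b-5p: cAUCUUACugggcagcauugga
mmu-miR-200a-5p: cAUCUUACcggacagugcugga
mmu-miR-429-5p: gUCUUACCagacaugguuaga
mmu-miR-200c-5p: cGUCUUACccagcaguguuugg
mmu-miR-141-5p: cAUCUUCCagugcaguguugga

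In GRCm38.p6 the hairpins of the first cluster lie on the minus strand of chromosome 4, Mir429 at chr4:156053905-156053987, Mir200a at chr4:156054896-156054985 and Mir200b at chr4:156055681-156055750. They span 1846 bases, with gaps of 908 and 695 bases. They overlap the long non-coding RNA gene Gm13648, and the nearest protein-coding genes on either side are Ttll10 and 9430015G10Rik. The second cluster lies on the minus strand of chromosome 6, with Mir141 at chr6:124717914-124717985 and Mir200c at chr6:124718322-124718390. It spans 477 bases with a gap of 336, overlaps no other annotated gene and lies between Phb2 and Ptpn6. The hairpins of miR-200b and miR-200c, which stand for the 2 clusters, are shown with both arms in capitals.
Mir200b: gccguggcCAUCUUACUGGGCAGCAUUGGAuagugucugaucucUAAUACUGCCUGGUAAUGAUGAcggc
Mir200c: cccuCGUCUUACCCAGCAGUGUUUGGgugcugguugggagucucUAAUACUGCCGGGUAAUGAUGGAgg

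Each member was read by 2 to 4 probes that pair exactly with its 3′ part, on 30 spots per array in all. A miR-141-3p probe and a miR-200a-3p probe that pair with the same bases are shown because the ratio of these miRNAs is described below.
mmu-miR-141-3p probe: ccatctttaccagacag
mmu-miR-200a-3p probe: acatcgttaccagacag
The probes of miR-200a-3p and of miR-141-3p each had 2 mismatches to the other miRNA, and those of miR-200b-3p had 2 to miR-200c-3p. The probes of miR-429-3p had 3 and 4 mismatches to their closest other member. Those of miR-200c-3p reach its base 23, which the 22-base miR-200b-3p lacks. Over the other bases they pair with, miR-200b-3p and miR-200c-3p differ by U11G and A22G. Binding of a paralog to these probes was not tested.

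Of the 10 members, 6 were above background on all 8 arrays: the 5 3p arms and miR-200b-5p. MiR-200a-5p was above background on 2 control and 3 Akita arrays, with a summed scaled signal between 44.13 and 52.7. Its 4 scaled Akita values were all above its 4 control values, but it did not meet the rule for testing, which asks for all 4 arrays of 1 group. Before scaling the groups overlapped, at log2 values of 5.57 to 5.68 in control and 5.36 to 5.67 in Akita kidneys. Only 54 of its 240 spots were well above background. MiR-200c-5p, miR-141-5p and miR-429-5p were above background on 0 arrays, and 0 of 240 spots of each were well above it. No level is given for them. Even miR-200b-5p was dim: 83 of its 240 spots were well above background, and 1 of its 4 probes, of 15 bases, was above it on all 8 arrays.

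Levels are given as the log2 of the signal summed over a miRNA's probes, after scaling of every array to the 75th percentile of those probes that exceeded background on all 8. Fold changes are Akita minus control on that scale. Signals of different miRNAs come from different probes and are not compared with each other. The 6 measured members were tested with limma among 285 miRNAs, with Benjamini-Hochberg adjustment over all of them. Over all tested miRNAs, 24 were higher (8.42%) and 18 lower (6.32%) in Akita at an adjusted p under 0.05, with a median log2 fold change of 0.06.

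In this fit, 3 of the 6 measured family members were higher in Akita kidneys and 0 were lower, with a median log2 fold change of 0.20. MiR-200c-3p and miR-141-3p, the measured members of the chromosome 6 cluster, were 1.22-fold and 1.21-fold higher, and miR-200b-5p was 1.18-fold higher. In the chromosome 4 cluster the 3p arms did not pass the test. The 3 called members were also those whose groups did not overlap, against 13.7% of all tested miRNAs with every Akita value above every control value. These calls were sensitive to single arrays and to the scaling, as given with each value below.

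MiR-200c-3p was at 8.53, 8.72, 8.64 and 8.68 on control arrays 1 to 4 and at 8.91, 8.86, 9.01 and 8.92 on Akita arrays 1 to 4. The lowest Akita array was above the highest control array. The group means were 8.64 ± 0.08 and 8.92 ± 0.06 (SD, n = 4 each), a log2 fold change of 0.28 ± 0.07 SE (95% interval 0.13 to 0.44, limma adjusted p = 0.032). Its 2 probes gave 0.30 and 0.27. With any 1 array left out it was called in 0 of 8 fits, at fold changes of 0.23 to 0.31.

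MiR-141-3p, the other measured member of the chromosome 6 cluster, shares its seed with miR-200a-3p. It was at 8.92, 9.17, 8.96 and 9.01 in control and 9.34, 9.27, 9.38 and 9.19 in Akita kidneys. Control replicate 2 and Akita replicate 4 nearly met, and the groups did not overlap. The means were 9.01 ± 0.11 and 9.29 ± 0.08 (SD, n = 4 each), with a log2 fold change of 0.28 ± 0.08 SE (95% interval 0.10 to 0.46, limma adjusted p = 0.047). It stayed called in 1 of 8 fits with an array left out, the one without control replicate 2, and the fold changes ran from 0.24 to 0.33.

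MiR-200b-3p was at 11.78, 11.98, 11.90 and 11.98 in control and 12.06, 11.91, 12.04 and 12.18 in Akita kidneys. The groups overlapped through Akita replicate 2. The log2 fold change was 0.14 ± 0.08 SE (means 11.91 ± 0.09 and 12.05 ± 0.11, SD, n = 4 each; 95% interval -0.04 to 0.32, limma adjusted p = 0.26). Without Akita replicate 4, its highest array, the fold change was 0.03.

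MiR-429-3p, with the same seed, was at 10.77, 11.00, 10.88 and 10.95 in control and 11.08, 10.91, 11.05 and 11.18 in Akita kidneys. Again only Akita replicate 2 lay within the control range. The log2 fold change was 0.15 ± 0.08 SE (means 10.90 ± 0.10 and 11.05 ± 0.11, SD, n = 4 each; 95% interval -0.03 to 0.34, limma adjusted p = 0.22), and it was 0.05 without Akita replicate 4.

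MiR-200a-3p was at 11.51, 11.72, 11.58 and 11.61 in control and 11.65, 11.45, 11.61 and 11.65 in Akita kidneys. The groups lay over each other, and the lowest array of all was Akita replicate 2. The log2 fold change was -0.02 ± 0.08 SE (means 11.61 ± 0.09 and 11.59 ± 0.10, SD, n = 4 each; 95% interval -0.19 to 0.15, limma adjusted p = 0.90).

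MiR-200b-5p, the arm opposite miR-200b-3p, was at 5.93, 5.95, 5.92 and 5.85 in control and 6.04, 6.25, 6.13 and 6.19 in Akita kidneys, without overlap. The means were 5.91 ± 0.04 and 6.15 ± 0.09 (SD, n = 4 each), with a log2 fold change of 0.24 ± 0.07 SE (95% interval 0.09 to 0.39, limma adjusted p = 0.047). It was called in 0 of 8 fits with an array left out. With the mean of its probes' log2 values in place of their sum the fold change was 0.11 (adjusted p = 0.15).

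**Figure D1:**
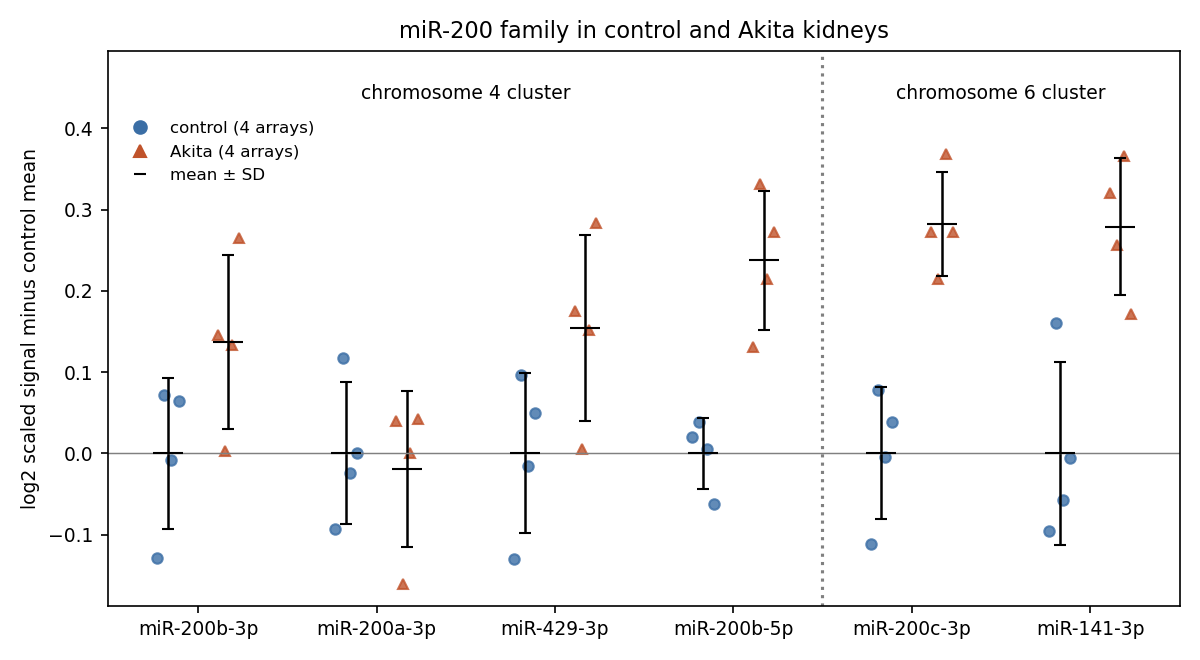
Log2 scaled signal of the 6 measured family members on each array, minus the control mean of that member; circles are the 4 control and triangles the 4 Akita arrays, with mean ± SD in black. The groups do not overlap for miR-200c-3p, miR-141-3p and miR-200b-5p, and they do for miR-200a-3p, miR-200b-3p and miR-429-3p.

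These directions depended on how the arrays were scaled. Before scaling, the 75th percentile of the common probes was 495.4 to 520 on the control arrays and 368.8 to 446.2 on the Akita arrays, so the Akita arrays were dimmer. Without scaling the fold changes of miR-200b-3p, miR-200b-5p and miR-429-3p were -0.14, -0.03 and -0.12, 0 members were called higher, and miR-200a-3p was called lower. The spike-in RNAs added at labelling gave a reference that does not rest on kidney miRNAs, but its 2 probes, dmr_285 and dmr_31a, did not give the same answer. With both averaged, miR-200c-3p and miR-141-3p stood at 0.04 each and miR-200a-3p, at -0.26, was called lower. With dmr_285 alone all 6 fold changes were below 0, from -0.38 to -0.08, and miR-200a-3p, miR-200b-3p and miR-429-3p were called lower. With dmr_31a alone miR-200c-3p and miR-141-3p stood at 0.16, and 0 members were called in either direction. MiR-200c-3p was called higher under 1 of the 8 other scalings tried, and miR-141-3p and miR-200b-5p under 0. MiR-429-3p, not called in the scaling used, was called higher under 2, quantile normalization (log2 fold change 0.22, limma adjusted p = 0.021) and cyclic loess (0.14, limma adjusted p = 0.028).

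**Figure D2:**
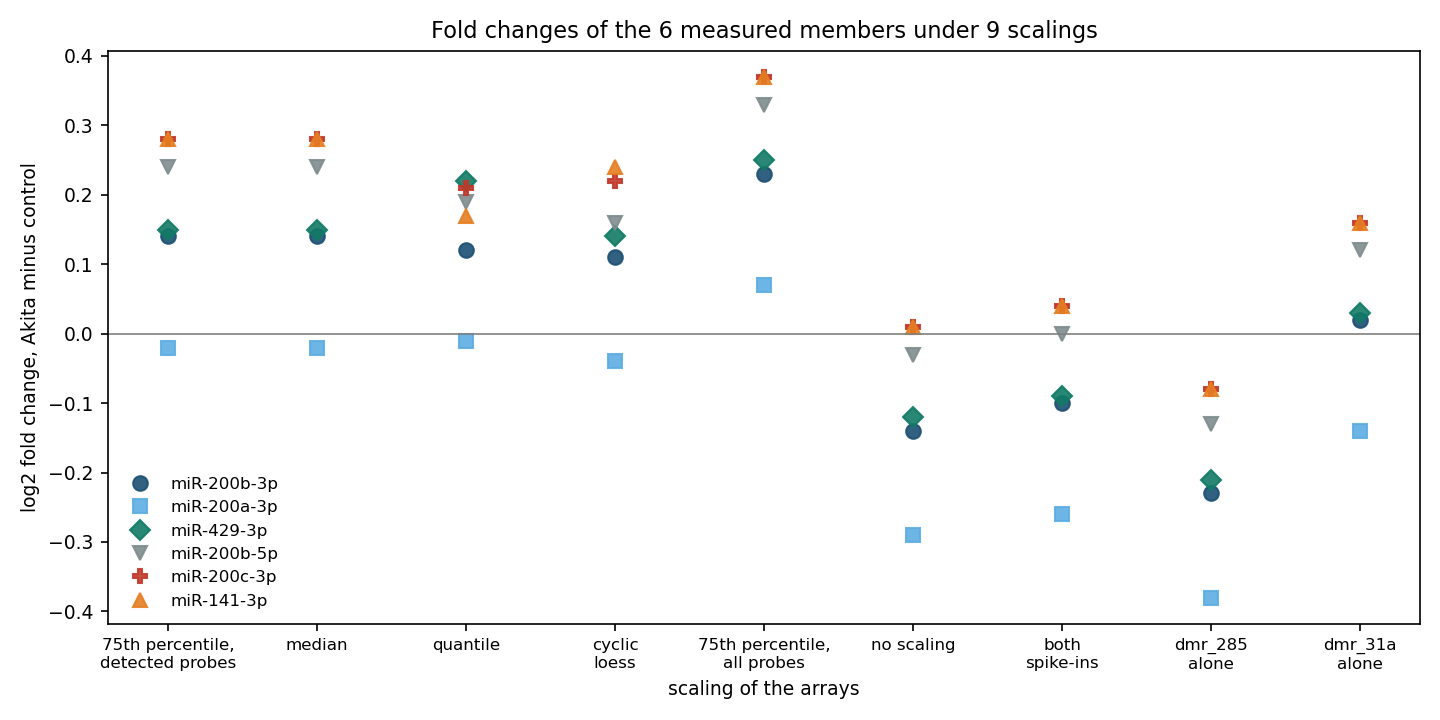
Log2 fold change, Akita minus control, of the 6 measured members (symbols) under the scaling used and 8 others (horizontal axis). The whole family shifts up or down with the scaling, from -0.38 for miR-200a-3p with dmr_285 alone to 0.37 for miR-200c-3p and miR-141-3p with the percentile over all probes, while miR-200a-3p is the lowest in each.

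The order of the fold changes was also followed over the alternatives. MiR-200a-3p had the lowest fold change of the 5 3p arms in 28 of 28 alternatives. Both members of the chromosome 6 cluster were above every 3p arm of the chromosome 4 cluster in 27 of 28, the exception being quantile normalization. The alternatives use the same 8 arrays, so these counts are not independent of each other. Several of them could not change the order. A scaling by a common factor per array shifts all 3p arms alike, and the changes of filter and floor left their fold changes as they were.

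The clusters were then compared within each array, where a scaling by 1 factor per array cancels. Relative to the control mean, the 4 measured members of the chromosome 4 cluster, miR-200b-5p included, averaged 0.12, 0.04, 0.13 and 0.22 on Akita arrays 1 to 4, and the chromosome 6 cluster 0.30, 0.24, 0.37 and 0.22. The first cluster minus the second was -0.15 ± 0.10 in Akita (SD, n = 4; -0.17, -0.19, -0.24 and -0.01) and ran from -0.04 to 0.02 in control. The clusters thus stood apart on 3 Akita arrays and not on Akita replicate 4, without which the difference was -0.20. With the 3p arms alone it was -0.19 ± 0.12 in Akita (SD, n = 4; -0.18, -0.29, -0.27 and -0.03). As means over members chosen with results known, these values carry no test. Grouped by seed, the Akita means were 0.19 ± 0.08 for AAUACUG and 0.13 ± 0.06 for AACACUG (SD, n = 4), and their ranges over arrays, 0.07 to 0.27 and 0.05 to 0.18, overlapped.

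Ratios of 2 members on the same array were compared for 7 pairs with an exact two-sided permutation test over the 35 splits of the arrays, whose smallest possible p is 0.0286. After Benjamini-Hochberg adjustment over the 7 pairs, 0 passed 0.05. At least 5 of the 7 would have to reach the smallest p together for any to pass, so this count says little about the pairs. The level of a ratio reflects the probes as well as the RNA, so only its difference between groups is read.

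Between paralogs with the seed AACACUG, the log2 ratio of miR-141-3p over miR-200a-3p was -2.59, -2.55, -2.63 and -2.60 in control and -2.31, -2.17, -2.23 and -2.46 in Akita kidneys. Every Akita array was above every control array. The difference was 0.30 ± 0.06 SE, a 1.23-fold higher ratio (n = 4 each, exact permutation p = 0.0286, the smallest possible, adjusted p = 0.1). It ran from 0.18 to 0.35 over 26 alternatives, although those that scale by a common factor per array cannot change it.

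With the seed AAUACUG, the log2 ratio of miR-200c-3p over miR-200b-3p was -3.29 to -3.25 in control and -3.14, -3.06, -3.03 and -3.26 in Akita kidneys. Akita replicate 4 lay among the controls, and the other 3 Akita arrays above them. The difference was 0.15 ± 0.05 SE (n = 4 each, exact permutation p = 0.0571, adjusted p = 0.133). MiR-200c-3p over miR-429-3p showed the same replicate among the controls, at -2.27 against -2.28 to -2.24, with a difference of 0.13 ± 0.05 SE (n = 4 each, exact permutation p = 0.114, adjusted p = 0.2).

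Within the chromosome 4 cluster, miR-200a-3p over miR-200b-3p was -0.27, -0.26, -0.32 and -0.37 in control and -0.41, -0.47, -0.44 and -0.53 in Akita kidneys. The groups did not overlap, and the ratio was lower in Akita by a log2 difference of -0.16 ± 0.04 SE (n = 4 each, exact permutation p = 0.0286, adjusted p = 0.1). MiR-429-3p over miR-200b-3p, by contrast, kept within -1.03 to -0.98 on all 8 arrays, with a difference of 0.02 ± 0.01 SE (n = 4 each, exact permutation p = 0.171, adjusted p = 0.24). Within the chromosome 6 cluster, miR-141-3p over miR-200c-3p was 0.37 in both groups (SD 0.06 in control and 0.07 in Akita), with a difference of 0.00 ± 0.05 SE (n = 4 each, exact permutation p = 0.971, adjusted p = 0.971).

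For the arms of miR-200b, the only hairpin with both arms measured, the log2 ratio of 5p over 3p was -6.00 ± 0.11 in control and -5.90 ± 0.16 in Akita kidneys (SD). The difference was 0.10 ± 0.10 SE (n = 4 each, exact permutation p = 0.4, adjusted p = 0.467). The fold change of miR-200b-5p passed the test and that of miR-200b-3p did not, but their ratio was not shown to differ between groups.

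**Figure D3:**
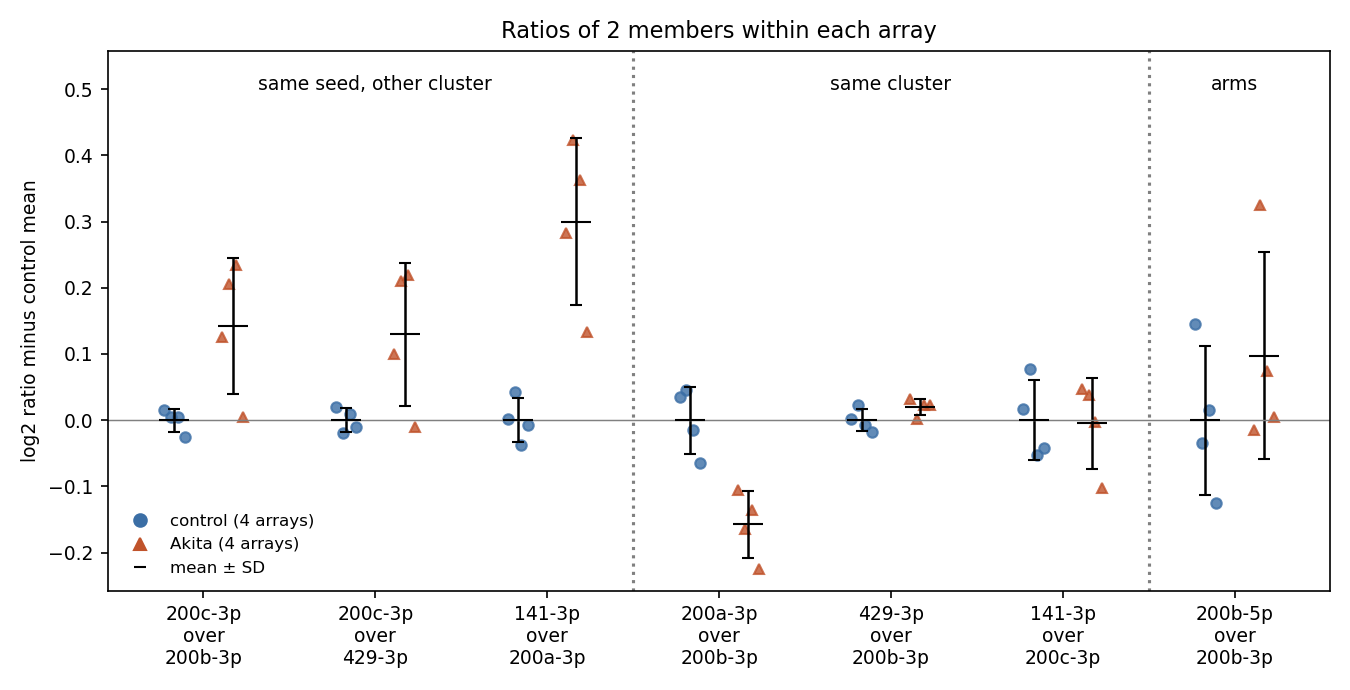
Log2 ratio of 2 members within each array, minus the control mean of that ratio, for the 7 pairs; circles are the 4 control and triangles the 4 Akita arrays, with mean ± SD in black. The groups do not overlap for miR-141-3p over miR-200a-3p and miR-200a-3p over miR-200b-3p, and Akita replicate 4 lies with the controls for both ratios of miR-200c-3p.

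The profile of miR-200c-3p over the 8 arrays was set beside those of 251 other miRNAs by the root mean square difference of log2 values, each centred on its own mean. The closest were miR-7671-3p (0.039), miR-34b-5p (0.049), miR-30d-5p (0.071) and miR-139-5p (0.073), where the median miRNA was at 0.187. Its cluster partner miR-141-3p was at 0.057. Closest to miR-200b-3p were miR-30e-3p (0.036), miR-30c-5p (0.037), miR-151-5p (0.038) and miR-374c-5p (0.038), with a median of 0.15. MiR-429-3p of its own cluster was closer than these, at 0.015, and miR-200a-3p, which lies between them on the chromosome, was at 0.089. The profiles share the same arrays and scaling, and the values are a description.

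Other miRNAs linked to epithelial to mesenchymal transition and TGF-beta were counted as a list: of 17 tested, 1 was higher (miR-34a-5p, a p53 target) and 0 lower, with a median of 0.02. Among all 285 tested miRNAs 8.42% were higher and 6.32% lower, so this count does not set the list apart. MiR-21a-5p, which promotes fibrosis, was at 12.90 ± 0.04 in control and 13.14 ± 0.11 in Akita kidneys (SD, n = 4 each, log2 fold change 0.23 ± 0.07 SE, limma adjusted p = 0.059). MiR-192-5p, a tubular miRNA, was at 12.06 ± 0.12 and 12.06 ± 0.18 (limma adjusted p = 0.97).

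Whole kidney RNA holds many cell types, and fewer cells of a type and less RNA per cell cannot be told apart. Of the renal tubule markers 0 of 5 tested were called (median -0.09), and the mean log2 level of the list was 10.75 to 10.96 in control and 10.69 to 11.03 in Akita kidneys. None of the 5 mesenchymal markers was called (median 0.00, 8.23 to 8.42 and 8.32 to 8.60), and 0 of 2 endothelial markers (median 0.13, 9.70 to 9.85 and 9.80 to 10.13). Of the other epithelial markers 0 of 2 tested were called (median 0.22, 6.08 to 6.83 and 6.29 to 7.00). Leukocyte markers were lower in Akita, 5 of 6 (median -0.54), with 6.93 to 7.12 in control and 6.41 to 6.63 in Akita kidneys. Over all 285 tested miRNAs, 8.42% were called higher and 6.32% lower in Akita under the scaling used. The erythrocyte miRNA miR-451a, the only 1 of 3 tested, ran from 6.44 to 10.23 in control and 9.18 to 9.59 in Akita kidneys. The markers of liver, muscle and brain were not tested, as they did not meet the rule on background. The part of these cell types in the family's differences was not tested. All 8 arrays lay on 1 slide, the control arrays in its first row and the Akita arrays in its second, so the row on the slide and the genotype cannot be told apart.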

How the data were processed

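Per the labels' protocols, 100 ng of kidney RNA per sample was labelled with Cy3. The deposited scanner files hold spot intensity. Agilent Feature Extraction 12.0.3.1, per the file headers, subtracted a spatial background and did not scale arrays to each other. The authors' deposited value table holds a ratio per miRNA and array and served as an alternative. Here, outlier spots (2.03% to 3.02% per array) were left out, spots averaged per probe and every array scaled to the 75th percentile of the 451 probes above background on all 8 arrays (at least 0.5 of spots). Probes of a miRNA were summed, floored at 23.65 and log2 taken. The 285 miRNAs above background on all 4 arrays of a group were tested with limma 3.58.1 in R 4.3.3, and the script was tested on simulated data. The number of arrays limits the precision. Members, pairs and lists were chosen with earlier results of these data known. The text names all members, any miRNA sharing a 3p seed, the 4 nearest profiles and the first 2 tested of the transition list; miR-34a-5p and miR-451a were named as single members of a count. Other scalings, summaries, floors, filters and left-out arrays were tried as alternatives.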

Additional observations from a re-analysis of the deposited data

How the results depend on the processing

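Against 3 members called higher in Akita, 0 were called without scaling, with both spike-ins, with either spike-in alone, with the percentile over all probes, with median scaling, with Feature Extraction's total gene signal, with the deposited value table and with the replicate number as a block. There was 1 with the brightest probe only, a floor 4 times higher and outlier spots kept (miR-200c-3p each time), 1 with quantile normalization (miR-429-3p), 1 with no filter (miR-200a-5p, otherwise untested), and 0 to 1 with 1 array left out. Against 0 called lower, 1 was called without scaling, 1 with both spike-ins and 3 with dmr_285 alone. The spike-in alternative was first run with dmr_285 alone. After that result had been seen, dmr_31a was added because Feature Extraction's labelling metric followed the mean of the 2 probes on each array. The metric lay above that mean by an offset that the hybridisation metric shared. On control replicate 4 the offsets were 0.174 and 0.176, and on the other arrays 0.049 to 0.057 and 0.05 to 0.057. Each probe alone was kept as an alternative chosen after seeing the data. Reversed fold changes were -0.14, -0.03 and -0.12 for miR-200b-3p, miR-200b-5p and miR-429-3p without scaling, -0.10, 0.00 and -0.09 with both spike-ins, and -0.23, -0.13 and -0.21 with dmr_285 alone, where miR-200c-3p and miR-141-3p were at -0.08 each. For miR-200a-3p they were 0.07 with the percentile over all probes and 0.01 with the brightest probe. They were also 0.02 without control replicate 2 and 0.01 without Akita replicate 2. With any other array left out its fold change stayed below 0, down to -0.10. The median of all tested miRNAs was -0.21 without scaling, -0.18 with both spike-ins, -0.30 with dmr_285, -0.06 with dmr_31a and 0.16 with all probes. Higher against lower calls over all miRNAs were 24 and 18 as reported, 5 and 104 without scaling, 7 and 107 with both spike-ins, 4 and 161 with dmr_285, 10 and 38 with dmr_31a, 10 and 4 with all probes, 29 and 41 with cyclic loess, 81 and 8 with normexp, 6 and 20 with total gene signal and 16 and 20 with the value table. The difference between the clusters was -0.06 with quantile normalization, -0.19 with 3p arms only (also chosen after seeing the data) and -0.20 to -0.12 with 1 array left out. Among ratios, miR-200c-3p over miR-429-3p was -0.01 with quantile normalization. MiR-141-3p over miR-200c-3p was 0.02 with cyclic loess, 0.00 with mean log2 probe values and with outlier spots kept, and -0.02 to 0.03 with 1 array left out. MiR-200b-5p over miR-200b-3p was -0.02 with mean log2 probe values and -0.14 with the higher floor. The cause was not tested. Same-numbered samples deviated with correlations of 0.10, -0.30, 0.34 and -0.35, and differently numbered samples with -0.43 to 0.46. These few values cannot decide whether the numbers pair the samples. In both groups the replicate number was also the array's column on the slide, so the replicate block is a block by column too. With the replicate block 11 miRNAs were higher and 14 lower.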
